A study of Homo sapiens with 32 samples.

Results

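The genes described here are the 10 whose products build the molybdenum cofactor or work with it. They are MOCOS, XDH, AOX1, SUOX, MOCS1, MOCS2, MOCS3, GPHN, MARC1 and MARC2, chosen by name from the 29744 genes of the deposited RNA-seq table, and all 10 were found. The RNA came from 2 human prostate cancer lines, the androgen-responsive LNCaP and its castration-resistant derivative C4-2B, written C42B in the labels. Cells of each line carried an siRNA against MOCOS (siMOCOS) or a control siRNA (siCTRL), and were given thapsigargin (TG), which blocks the calcium pump of the endoplasmic reticulum, or vehicle. The 32 libraries thus form 8 groups of 4, and within each line these are siMOCOS with TG, siCTRL with TG, siMOCOS without TG and siCTRL without TG. Neither the dose nor the duration of TG is given in the sources used here. A knockdown group mixes 2 siRNAs against MOCOS, with 2 libraries of each, and the table's columns do not say which siRNA a library received, so a knockdown replicate number below is only a column number. The series calls its libraries biological replicates without saying whether separate cultures are meant, and p-values measure the spread between these libraries.

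The molybdenum cofactor is a pterin that holds a molybdenum atom in the active site of a small set of enzymes. MOCS1 begins it from GTP, MOCS2 adds the sulfurs that MOCS3 recharges, and gephyrin (GPHN) inserts the metal. Sulfite oxidase (SUOX) and the mitochondrial amidoxime reducing components MARC1 and MARC2 use the cofactor in that form, whereas xanthine dehydrogenase (XDH) and aldehyde oxidase (AOX1) are inactive until MOCOS exchanges an oxygen of the metal centre for sulfur.

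MOCOS and XDH were the members that rose with TG in both lines, so the stretch before each start site is shown. The windows are the 250 bases upstream of the RefSeq start in GRCh38.p14, chr18:36187247-36187496 on the plus strand for MOCOS and chr2:31414743-31414992 on the minus strand for XDH. Capitals mark CCACG and CCAAT on either strand, the separate blocks of the endoplasmic reticulum stress element, so that CGTGG and ATTGG are their reverse complements.
MOCOS: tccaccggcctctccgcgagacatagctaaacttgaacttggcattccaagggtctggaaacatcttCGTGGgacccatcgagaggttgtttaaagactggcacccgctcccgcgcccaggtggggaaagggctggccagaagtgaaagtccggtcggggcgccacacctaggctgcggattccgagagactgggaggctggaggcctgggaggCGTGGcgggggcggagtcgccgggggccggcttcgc
XDH: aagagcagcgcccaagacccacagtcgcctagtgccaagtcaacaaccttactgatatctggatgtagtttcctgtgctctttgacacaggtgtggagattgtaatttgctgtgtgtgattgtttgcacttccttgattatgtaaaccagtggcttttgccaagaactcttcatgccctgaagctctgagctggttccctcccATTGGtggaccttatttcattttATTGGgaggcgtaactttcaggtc

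The MOCOS window held 2 CCACG matches and no CCAAT, and the XDH window held 2 CCAAT matches and no CCACG. Of the 10 promoters of the members, 7 held CCACG, against 33.3% of 27305 RefSeq promoters, and 5 held CCAAT, against 33% of them. Those with CCACG were MOCOS, MOCS1, MOCS2, MOCS3, GPHN, MARC1 and MARC2. Of these, MOCOS, MOCS2 and MARC1 were called with TG in LNCaP siCTRL cells, and only MOCOS in C4-2B siCTRL cells. Whether the matches bear on the response to TG was not tested. XDH and SUOX, which were called with TG in both lines, held no CCACG, nor did AOX1. The GC content of the windows was 43.2% to 72%, and its part in these counts was not tested. The whole elements were searched on both strands too, and none was found in any of the 10 windows. They are rare in promoters at large, at 0.0806% for the endoplasmic reticulum stress element (CCAAT, then 9 bases of any kind, then CCACG), 0.0513% for element II (ATTGG, any base, then CCACG), 1.71% for TGACGTG and 0.916% for TGATGNAAT. Both stress elements contain the blocks marked above.

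Library totals were 7.51 to 27.1 M estimated counts. The luminal prostate markers KLK2, KLK3, TMPRSS2, FOLH1, HOXB13, KRT8 and KRT18 were detected in every library, but the marker lists varied with the groups. The summed level of the 9 luminal markers was 2575 to 3037 CPM (counts relative to the effective library size, which includes the TMM factor) in LNCaP siMOCOS with TG, 2449 to 2721 CPM in siCTRL with TG, 5506 to 7233 CPM in siMOCOS and 5469 to 5964 CPM in siCTRL. In C4-2B it was 1782 to 2102 CPM, 1612 to 1751 CPM, 3396 to 4526 CPM and 2678 to 2840 CPM in the same groups. In that order of groups, the summed endothelial pair PECAM1 and VWF, of which PECAM1 reached at most 0.0754 CPM, was 7.86 to 8.99 CPM, 5.52 to 8.52 CPM, 3.00 to 7.002 CPM and 2.14 to 2.90 CPM in LNCaP, and 3.63 to 6.49 CPM, 4.602 to 6.20 CPM, 2.09 to 3.22 CPM and 0.916 to 1.31 CPM in C4-2B. Over the same groups, in the same order, the 3 basal markers KRT5, KRT14 and TP63 summed to 1.10 to 2.08 CPM, 0.806 to 0.963 CPM, 0.286 to 0.994 CPM and 0.113 to 0.648 CPM in LNCaP, and to 1.11 to 3.70 CPM, 1.04 to 1.28 CPM, 0.157 to 0.21 CPM and 0 to 0.0558 CPM in C4-2B. The 3 immune markers summed to at most 0.0991 CPM in any library. In the siCTRL cells of LNCaP and of C4-2B, the luminal sum was lower and the endothelial and basal sums were higher with TG than without, with no overlap. The stromal pair COL1A1 and COL3A1 varied as well. Their summed level was 12.0 to 18.8 CPM in LNCaP siMOCOS with TG, 7.09 to 9.81 CPM in siCTRL with TG, 6.92 to 8.94 CPM in siMOCOS and 3.70 to 5.36 CPM in siCTRL. In C4-2B it was 14.3 to 21.6 CPM, 6.25 to 15.5 CPM, 6.65 to 9.82 CPM and 3.29 to 7.51 CPM in the same groups. The part of these levels in the results below was not tested. In RNA from a whole culture, fewer cells that use a gene and less of its RNA per cell cannot be told apart.

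In siCTRL cells without TG the members differed widely in level. Per kilobase of transcript, MOCS2 averaged 28.7 CPM in LNCaP and 23.0 CPM in C4-2B in these cells. SUOX was close to it, with 25.2 CPM per kilobase in LNCaP and 22.7 CPM per kilobase in C4-2B, and MARC1 had 16.6 and 27.7 CPM per kilobase in the same lines. MARC2, GPHN and MOCS1 lay lower, between 7.24 and 10.7 CPM per kilobase. MOCOS averaged 3.95 CPM per kilobase in LNCaP and 5.11 in C4-2B, and MOCS3, a gene of 1 exon, 1.62 and 2.09. At the low end stood both enzymes that depend on MOCOS, XDH at 0.818 CPM per kilobase in LNCaP and 0.320 in C4-2B, and AOX1 at 0.0495 and 0.0218. These values use the length of the main transcript, and the top of the order depends on that choice. With the merged length of all annotated exons, an alternative chosen after seeing the data, MOCS2 was 8.52 CPM per kilobase in LNCaP and 6.83 in C4-2B, below SUOX (14.4 and 12.98) and MARC1 (13.3 and 22.3) in both lines, while XDH and AOX1 stayed at the low end.

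**Figure D1:**
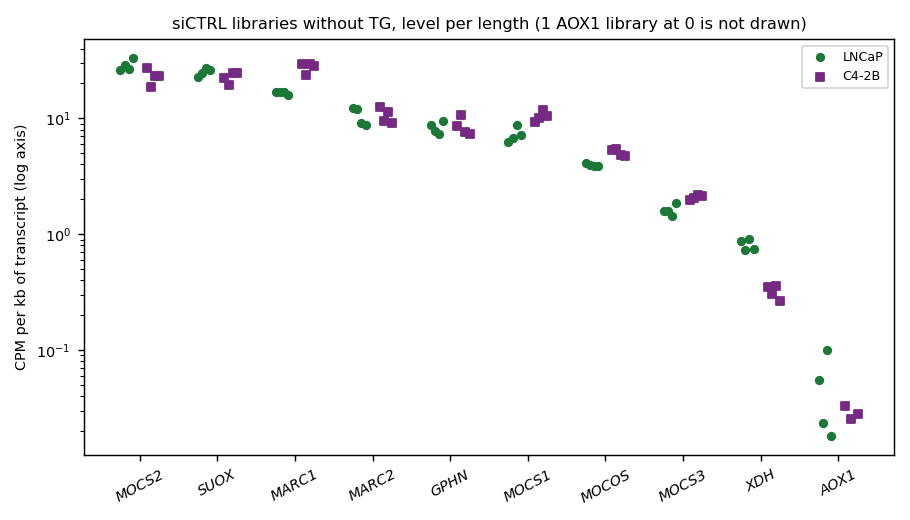
Level of each gene per kilobase of its main transcript (CPM per kb, log axis) in siCTRL cells without TG, 1 point per library, with LNCaP left of C4-2B. The C4-2B library with an AOX1 count of 0 has no AOX1 point. Levels run from 28.7 CPM per kb on average for MOCS2 in LNCaP on this length down to AOX1, which had 0.0495 CPM per kb in LNCaP and 0.0218 in C4-2B.

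With TG, MOCOS and XDH were higher and SUOX was lower in both lines, while most genes of cofactor synthesis differed little. A gene is called here where edgeR's quasi-likelihood test gave an adjusted p under 0.05 (Benjamini-Hochberg over all genes tested). With TG in siCTRL cells 2 members were called higher and 3 lower in LNCaP, where 24.6% of all tested genes were called higher and 25.1% lower (49.7% in all). In C4-2B 3 were called higher and 1 lower, against 21.2% and 19.3% of all genes (40.5% in all). The median log2 change of the members was -0.08 in LNCaP and -0.08 in C4-2B, beside -0.04 and -0.01 over all genes. Shares of 5 and 4 in 10 lie near the background of this drug.

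**Figure D2:**
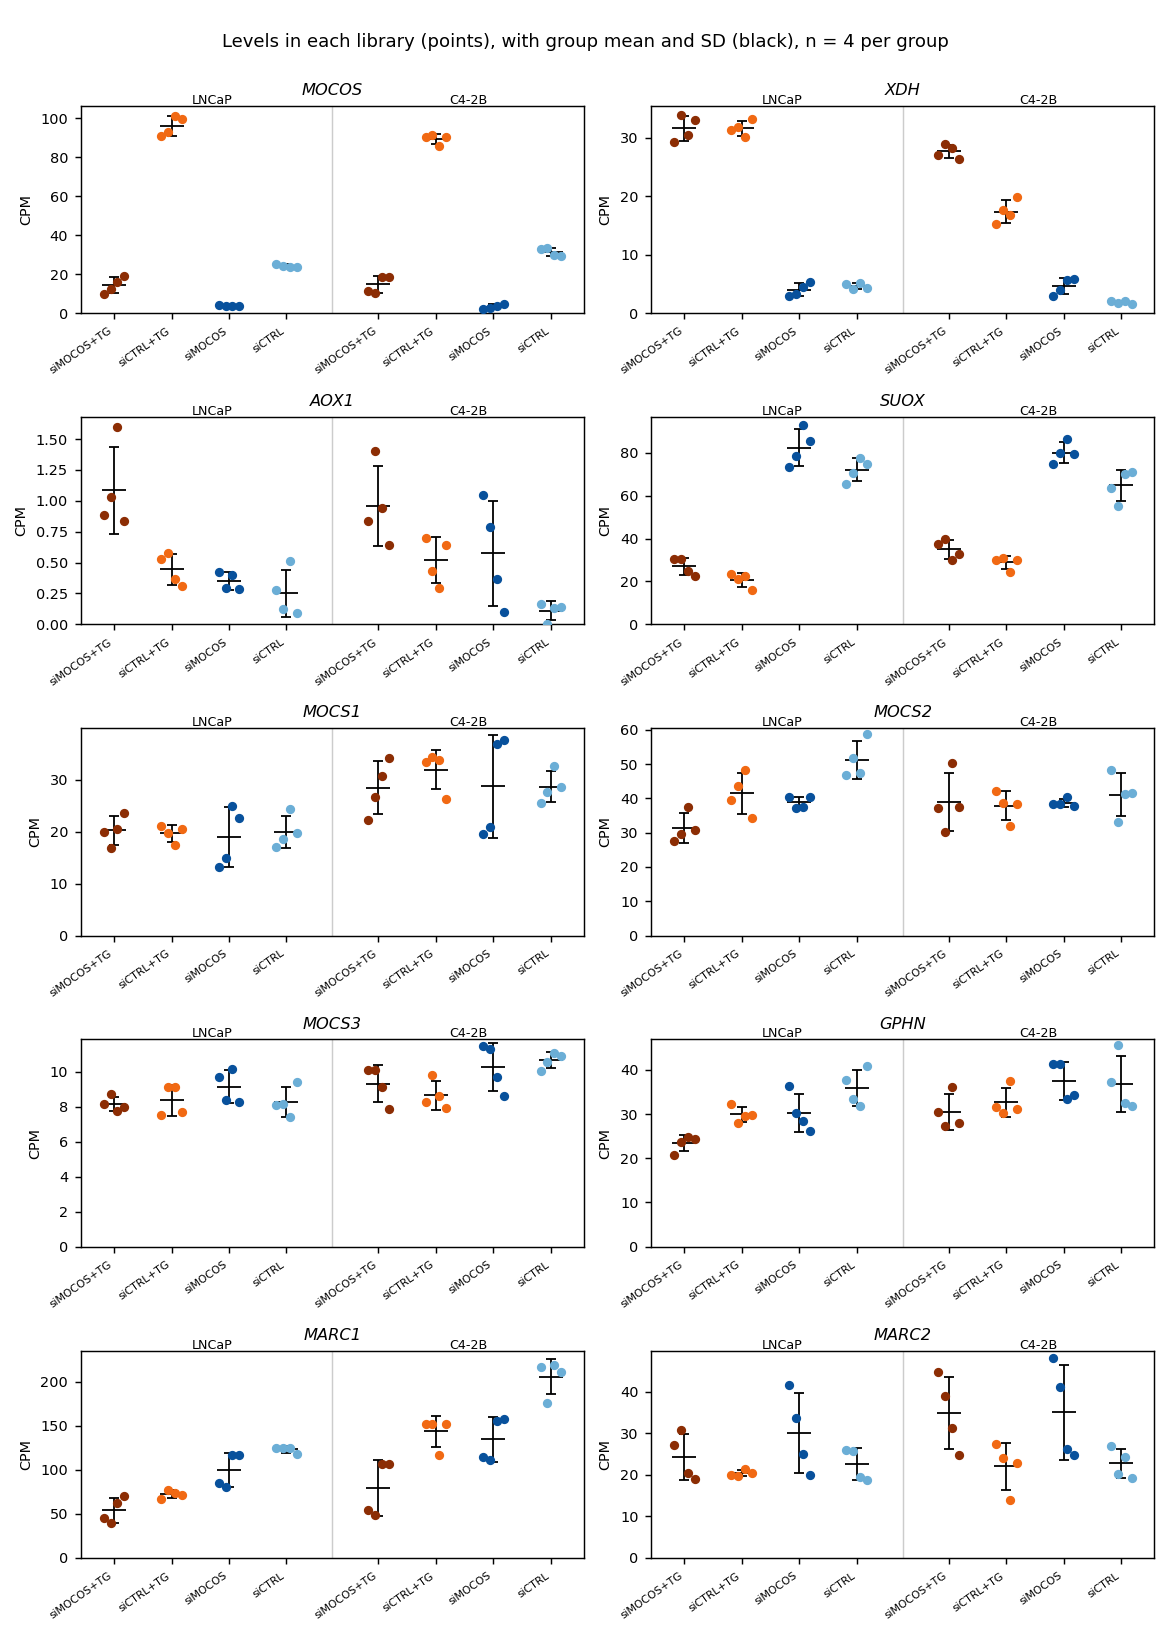
Level of each of the 10 genes (CPM, linear axis from 0) in all 32 libraries, with LNCaP left of C4-2B and, within a line, siMOCOS with TG, siCTRL with TG, siMOCOS and siCTRL. Points are libraries, and black marks are the mean and SD (n = 4). MOCOS is highest in siCTRL cells with TG, between 85.5 and 101 CPM, and SUOX is lowest in the groups with TG.

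MOCOS, at 36187519 to 36272157 on the plus strand of chromosome 18 (GRCh38, as are all gene positions here), is the target of the siRNA and also responded to TG. In LNCaP siCTRL cells it had 90.9, 92.6, 101 and 99.6 CPM with TG, against 25.2, 24.4, 23.9 and 23.7 CPM without. In C4-2B siCTRL cells it had 90.2, 91.5, 85.5 and 90.4 CPM with TG, against 32.8, 33.6, 30.0 and 29.5 CPM without. Every library with TG stood above every library without, and the treated libraries of both lines overlapped. The log2 change was 1.98 in LNCaP (SE 0.149, edgeR adjusted p = 8.22e-09) and 1.5 in C4-2B (SE 0.198, adjusted p = 1.47e-05). The difference between those responses was not called (log2 0.48, SE 0.248, adjusted p = 0.566).

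The siRNA left a fraction of MOCOS RNA in every knockdown library. In LNCaP, MOCOS had 9.76, 12.3, 15.97 and 19.1 CPM in siMOCOS cells with TG and 4.12, 3.58, 3.46 and 3.86 CPM in siMOCOS cells without it. In C4-2B these levels were 11.5, 10.5, 18.7 and 18.4 CPM with TG and 2.30, 2.83, 3.94 and 4.64 CPM without. No knockdown library overlapped the siCTRL libraries of its line and drug. Relative to the siCTRL mean of the same line and drug, 7.30% to 20.9% of the MOCOS level remained. The knockdown log2 change was -2.72 in LNCaP with TG (SE 0.153, adjusted p = 6.29e-09) and -2.57 in C4-2B with TG (SE 0.206, adjusted p = 1.98e-07), and -2.72 and -3.21 in the lines without TG (adjusted p = 5.18e-08 and 4.48e-08). MOCOS was higher in knockdown cells with TG than without, at log2 1.98 in LNCaP (adjusted p = 5.13e-08) and 2.14 in C4-2B (adjusted p = 8.19e-07), yet it stayed below untreated siCTRL cells in every library of both lines.

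XDH (chromosome 2, 31334321 to 31414715, minus strand) carries out the closing steps of purine breakdown, from hypoxanthine to urate. With TG it had 31.3, 31.8, 30.1 and 33.3 CPM in LNCaP siCTRL cells, against 5.01, 4.15, 5.19 and 4.26 CPM without TG. In C4-2B siCTRL cells it had 15.2, 17.6, 16.7 and 19.8 CPM with TG, against 2.01, 1.75, 2.02 and 1.51 CPM without. The groups were far apart in both lines, with a log2 change of 2.76 in LNCaP (SE 0.150, edgeR adjusted p = 1.74e-10) and 3.24 in C4-2B (SE 0.206, adjusted p = 7.03e-09). The difference between these responses was -0.48 (SE 0.242, adjusted p = 0.539), with a 95% interval from -0.98 to 0.01.

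Knockdown separated the lines at XDH. LNCaP siMOCOS cells without TG had 2.98, 3.35, 4.55 and 5.29 CPM, which overlapped the siCTRL libraries above (log2 -0.26, SE 0.166, adjusted p = 0.292). C4-2B siMOCOS cells without TG had 2.98, 3.98, 5.67 and 5.91 CPM, all above the siCTRL libraries of that line (log2 1.33, SE 0.206, adjusted p = 0.000186). The LNCaP change minus the C4-2B change was -1.57 (SE 0.259, adjusted p = 0.00322), and it was called under every alternative run, each left-out library included. This was the only member called in that comparison, in which 0.157% of all genes were called. Untreated siMOCOS cells of both lines thus held similar XDH levels, 4.04 ± 1.06 CPM in LNCaP and 4.63 ± 1.40 CPM in C4-2B (SD, n = 4 each), whereas siCTRL cells had 4.65 ± 0.527 CPM in LNCaP and 1.82 ± 0.244 CPM in C4-2B (SD, n = 4 each).

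With TG present, XDH had 29.2, 33.8, 30.5 and 33.0 CPM in LNCaP siMOCOS cells, overlapping the siCTRL cells with TG (log2 0.02, SE 0.132, adjusted p = 0.913). In C4-2B siMOCOS cells with TG it had 27.1, 28.9, 28.2 and 26.4 CPM, above all 4 siCTRL libraries with TG (log2 0.70, SE 0.175, adjusted p = 0.00969). Here the difference between the lines was -0.67 (SE 0.213) and was not called by edgeR (adjusted p = 0.138), although DESeq2 called it (log2 -0.70, adjusted p = 0.0112). No other member was called in this comparison by edgeR or DESeq2, against 0.431% of all genes by edgeR. At an unadjusted p under 0.05 edgeR gave 2 members, XDH and MOCS2, and limma voom called 0.

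AOX1 (chromosome 2, 200585868 to 200677064, plus strand) oxidises aldehydes and nitrogen heterocycles, chiefly in liver, and was close to the limit of detection. Its estimated counts were 0 to 5.94 per library in siCTRL cells without TG and at most 30.0 in any library. LNCaP siMOCOS cells with TG had 0.883, 1.03, 1.60 and 0.834 CPM, against 0.525, 0.575, 0.370 and 0.313 CPM in siCTRL cells with TG. C4-2B siMOCOS cells without TG had 1.04, 0.785, 0.367 and 0.0977 CPM, against 0.167, 0, 0.131 and 0.144 CPM in siCTRL cells. In the LNCaP pair the groups did not overlap (log2 1.30, SE 0.386, adjusted p = 0.0218), while in the C4-2B pair 1 knockdown library lay among the controls (log2 2.21, SE 0.706, adjusted p = 0.0335). Neither call was secure: the LNCaP one was lost without siCTRL TG replicate 3 (adjusted p = 0.0758) or 4 (0.0742) or siMOCOS TG replicate 2 (0.0505) or 3 (0.0692), and the C4-2B one with limma voom (0.112), without any single siCTRL library (0.0543 to 0.0791) and without siMOCOS replicate 1 (0.122) or 2 (0.0881). The rise of AOX1 with TG was called in LNCaP siMOCOS cells under every alternative (log2 1.63, SE 0.425, adjusted p = 0.00389). In C4-2B siCTRL cells it was called as well (log2 2.08, SE 0.710, adjusted p = 0.0235), but not without siCTRL replicate 2 (0.0551) or 3 (0.0509) or siCTRL TG replicate 1 (0.0538) or 4 (0.0576).

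The genes of cofactor synthesis moved little by group mean. MOCS1, on chromosome 6 (39899578 to 39934551, minus strand), was called in no comparison of drug or knockdown, and its libraries ranged from 13.2 to 25.0 CPM in LNCaP and from 19.5 to 37.6 CPM in C4-2B. In C4-2B siMOCOS cells without TG it had 19.5, 20.8, 37.0 and 37.6 CPM, on both sides of the siCTRL libraries (25.6 to 32.7 CPM). The tests pool such columns, and the split by column number is described below. MOCS1 shares 735 exon bases with DAAM2 on the opposite strand. The kit was strand-specific, but whether counting used the strand is not given in the sources used here, so its level is uncertain to that extent. DAAM2 itself reached at most 1.05 CPM in LNCaP and 4.86 CPM in C4-2B. MOCS3 (chromosome 20, 50958826 to 50963931, plus strand), which also loads sulfur for tRNA modification, stayed between 7.41 and 11.5 CPM in all 32 libraries and was not called with TG or knockdown in either line.

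MOCS2 and GPHN had small differences in LNCaP that stood near the threshold. MOCS2 (chromosome 5, 53095679 to 53110063, minus strand) encodes both subunits of molybdopterin synthase from overlapping reading frames, which gene counts cannot tell apart. With TG in LNCaP siCTRL cells it had 39.7, 43.7, 48.3 and 34.1 CPM, against 46.8, 51.8, 47.3 and 58.8 CPM without TG (log2 -0.30, SE 0.121, adjusted p = 0.0469). The groups overlapped, and 11 of 16 alternatives ended the call. LNCaP siMOCOS cells without TG had 40.3, 37.2, 37.6 and 40.3 CPM, all below the siCTRL libraries (log2 -0.42, SE 0.122, adjusted p = 0.0266). Gephyrin, also the scaffold of inhibitory synapses, is encoded on chromosome 14 (66507407 to 67181803, plus strand). It had 20.8, 23.8, 24.9 and 24.3 CPM in LNCaP siMOCOS cells with TG, against 32.3, 28.1, 29.6 and 29.8 CPM in siCTRL cells with TG, with no overlap (log2 -0.33, SE 0.113, adjusted p = 0.0455). In C4-2B neither gene was called with drug or knockdown.

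SUOX (chromosome 12, 55997180 to 56006641, plus strand), the mitochondrial enzyme that turns sulfite into sulfate, fell with TG in both lines. LNCaP siCTRL cells had 23.5, 21.1, 22.6 and 16.2 CPM with TG, against 65.4, 70.4, 77.6 and 75.0 CPM without. C4-2B siCTRL cells had 30.2, 31.0, 24.3 and 30.0 CPM with TG, against 63.7, 55.3, 70.0 and 71.0 CPM without. No treated library reached the untreated ones, and the log2 change was -1.79 in LNCaP (SE 0.135, edgeR adjusted p = 8.45e-09) and -1.17 in C4-2B (SE 0.128, adjusted p = 2.09e-06). The fall was also called in siMOCOS cells, at log2 -1.56 in LNCaP (adjusted p = 3.64e-08) and -1.16 in C4-2B (adjusted p = 2.19e-06).

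The difference of the SUOX responses, LNCaP minus C4-2B, was -0.62 (SE 0.176, adjusted p = 0.105) and passed only after a correction for GC content and length chosen after seeing the data (log2 -0.63, adjusted p = 0.0138). No member was called in that comparison by edgeR, DESeq2 or limma voom, where edgeR called 0.848% of all genes, and SUOX was the 1 member at an unadjusted p under 0.05 in edgeR. By mean, SUOX was above its control in siMOCOS cells of both lines with and without TG. In LNCaP with TG it was 27.1 ± 3.97 CPM in siMOCOS cells and 20.9 ± 3.27 CPM in siCTRL cells (SD, n = 4 each), overlapping groups with a log2 change of 0.40 (SE 0.133, adjusted p = 0.0374). That call was lost without siMOCOS TG replicate 1 (0.143) or 2 (0.135), or siCTRL TG replicate 2 (0.0721), 3 (0.0671) or 4 (0.159). In the other settings the log2 change was 0.17 to 0.31 and not called.

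MARC1 and MARC2 lie in tandem on the plus strand of chromosome 1, MARC2 at 220748225 to 220784815 and MARC1 at 220786759 to 220819657. Both reduce N-hydroxylated compounds at the outer mitochondrial membrane, with electrons from cytochrome b5. As they are paralogs, reads that fit both could have been split between them in the authors' counting. MARC1 had 67.1, 77.6, 74.3 and 71.6 CPM in LNCaP siCTRL cells with TG, against 125, 125, 125 and 118 CPM without. In C4-2B siCTRL cells it had 153, 152, 117 and 152 CPM with TG, against 217, 176, 219.6 and 211 CPM without. The groups did not overlap in either line. The difference was called in LNCaP (log2 -0.76, SE 0.160, adjusted p = 0.000713), whereas in C4-2B it missed the threshold (log2 -0.52, SE 0.220, adjusted p = 0.0662). With only the groups compared in the fit, C4-2B passed as well (log2 -0.50, adjusted p = 0.0065).

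After knockdown with TG, MARC1 had 44.8, 40.0, 62.0 and 69.9 CPM in LNCaP siMOCOS cells, partly overlapping the siCTRL cells with TG (log2 -0.40, SE 0.160, adjusted p = 0.0813). C4-2B siMOCOS cells with TG had 54.2, 49.0, 107 and 107 CPM, all below the siCTRL cells with TG (log2 -0.83, SE 0.221, adjusted p = 0.0141), but that call ended when only those 8 libraries were fitted (adjusted p = 0.0573). Without TG, LNCaP siMOCOS cells had 84.7, 80.7, 117 and 117 CPM and C4-2B siMOCOS cells had 114, 111, 156 and 158 CPM, again below the controls but not called (adjusted p = 0.174 and 0.0602). MARC2 ran the other way by its means. It had 44.8, 39.0, 31.2 and 24.8 CPM in C4-2B siMOCOS cells with TG, against 27.4, 24.0, 14.03 and 22.9 CPM in siCTRL cells with TG (log2 0.69, SE 0.241, adjusted p = 0.0578, not called). TG itself was not called for MARC2 in either line.

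The knockdown columns of these paralogs fell into a pattern by column number. MARC1 stood at 34.1% to 68.6% of the siCTRL mean in columns 1 and 2 and at 74.4% to 96.2% in columns 3 and 4. MARC2 stood at 133% to 212% in columns 1 and 2 and at 88.8% to 141% in columns 3 and 4, and MOCS1 at 66.4% to 102% and 96.3% to 131%. In each of the 4 knockdown groups of line and drug these 3 genes separated without overlap, always the same way, MARC1 and MOCS1 lower and MARC2 higher in columns 1 and 2. Among the 9 members with a mean of at least 5 CPM they were 3, and 22.7% of all genes at that level separated so, which gives the members no special place. MOCOS itself did so in 3 of the 4 groups. XDH was lower in columns 1 and 2 than in columns 3 and 4 in both lines without TG, and did not separate with TG. Without TG it stood at 64.1% and 72.0%, against 97.8% and 114%, in LNCaP. In C4-2B it stood at 163% and 218%, against 311% and 324%. These are the libraries in which knockdown separated the lines at XDH above. Which siRNA a column holds is not known here, and the split by column was looked at after the values were seen.

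**Figure D3:**
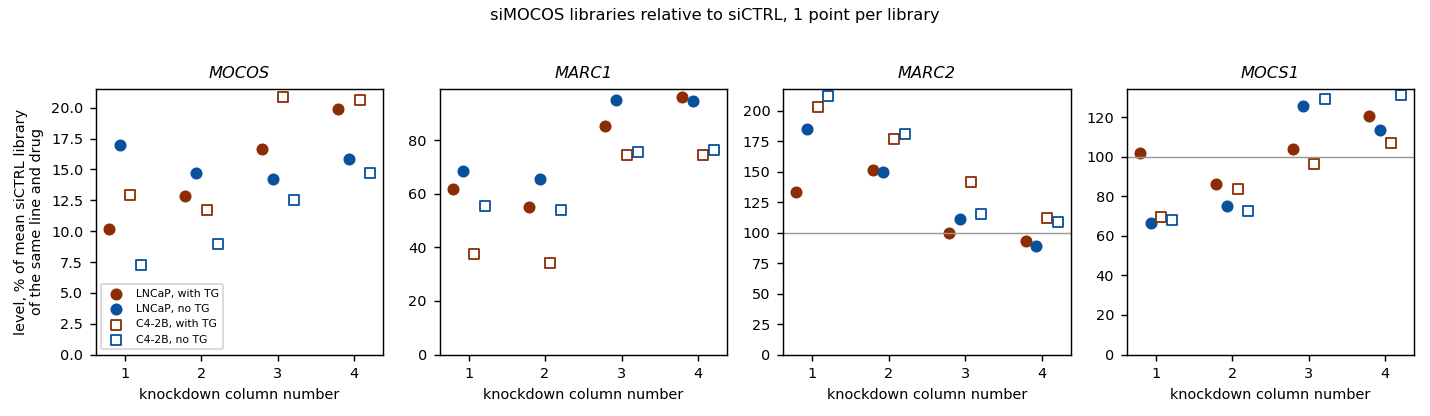
Level of MOCOS, MARC1, MARC2 and MOCS1 in each siMOCOS library as a percentage of the matching siCTRL mean (same line, same drug; linear axes from 0), by column number; a grey line marks 100% in the MARC2 and MOCS1 panels. MARC1 and MOCS1 are lower and MARC2 is higher in columns 1 and 2 than in columns 3 and 4 of each group, while MOCOS lies between 7.30% and 20.9%.

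Counted over the pathway, knockdown with TG called 2 members higher (AOX1, SUOX) and 3 lower (MOCOS, MOCS2, GPHN) in LNCaP, against 11.7% and 10.2% of all genes (21.9% in all). In C4-2B it called 1 higher (XDH) and 2 lower (MOCOS, MARC1), against 9.21% and 7.6% of all genes (16.8% in all). Without TG it called 2 members lower in LNCaP and 0 higher (MOCOS, MOCS2), against 9.73% and 6% of all genes (15.7% in all). In C4-2B without TG it called 2 higher (XDH, AOX1) and 1 lower (MOCOS), against 9.09% and 8.14% (17.2% in all). MOCOS is the target of the siRNA, so its lower call in each of these counts was set by the design. Apart from it, only MOCS2 was called in LNCaP without TG. In C4-2B only XDH and MARC1 were called with TG, and only XDH and AOX1 without. The medians that follow also include MOCOS. The members' median log2 change was 0.00 and 0.10 with TG, and -0.18 and 0.01 without TG, in LNCaP and C4-2B in that order, beside medians of 0.01, 0.01, -0.02 and 0.00 over all genes. Apart from MOCOS, the LNCaP calls depended on single libraries. With TG the 5 called members fell to 1 without siCTRL TG replicate 3 or siMOCOS TG replicate 2, and to 2 without siCTRL TG replicate 4 or siMOCOS TG replicate 1. Without TG the call of MOCS2 was lost without siCTRL replicate 2 (adjusted p = 0.0516) or 4 (0.0909) or siMOCOS replicate 2 (0.0766) or 3 (0.0584). The libraries' deviations from their group means correlated with gene GC content by r = -0.69 to 0.57, and after a correction for GC content and length the adjusted p of MOCS2 was 0.129 without TG and 0.254 with TG, and that of GPHN with TG was 0.114.

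In knockdown cells TG called 3 members higher (MOCOS, XDH, AOX1) and 3 lower (SUOX, GPHN, MARC1) in LNCaP, against 25.1% and 21.9% of all genes (47% in all). In C4-2B it called 2 higher (MOCOS, XDH) and 2 lower (SUOX, MARC1), against 20.7% and 17.2% of all genes (37.9% in all). These shares, too, are near the background. Whether knockdown altered the response to TG was tested as an interaction. No member was called in LNCaP (0.00724% of all genes, with 0 members at an unadjusted p under 0.05 in edgeR) or in C4-2B (0.0708% of all genes, with 2 members, MOCOS and XDH, at an unadjusted p under 0.05), and DESeq2 and limma voom called 0 in both lines.

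**Figure D4:**
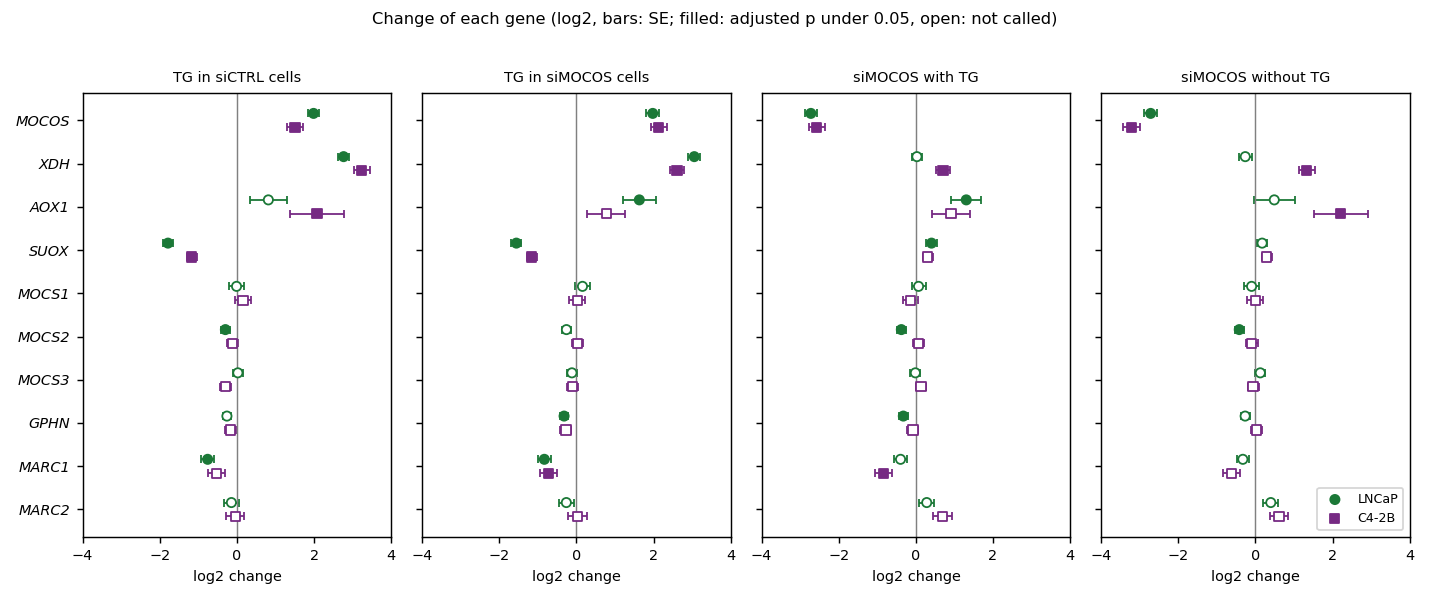
Log2 change of each gene (points, with bars for the SE) for TG in siCTRL cells, TG in siMOCOS cells, siMOCOS with TG and siMOCOS without TG; circles are LNCaP and squares C4-2B, filled where edgeR's adjusted p was under 0.05. XDH lies at 2.76 and 3.24 with TG in siCTRL cells, and with knockdown it is called only in C4-2B.

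The untreated lines differed at several members. In siCTRL cells without TG 1 member was called higher in LNCaP than in C4-2B, XDH (log2 1.34, SE 0.189, adjusted p = 1.23e-06), and 3 lower, against 21.1% and 20.1% of all genes (41.2% in all). MARC1 was 123 ± 3.60 CPM in LNCaP and 206 ± 20.1 CPM in C4-2B (SD, n = 4 each; log2 -0.74, SE 0.201, adjusted p = 0.00393). MOCS1 was 19.9 ± 3.13 CPM in LNCaP and 28.6 ± 3.00 CPM in C4-2B (SD, n = 4 each; log2 -0.53, SE 0.200, adjusted p = 0.034). MOCS3 differed by log2 -0.36 (SE 0.125, adjusted p = 0.0195). The libraries of the lines did not overlap for any of these 4 genes. MOCOS libraries did not overlap either, being lower in LNCaP, but MOCOS was not called (log2 -0.37, SE 0.178, edgeR adjusted p = 0.0953). The share of all genes without overlap was not counted. The MOCS1 call was lost without C4-2B siCTRL replicate 3 (0.0772) or 4 (0.0588), or LNCaP siCTRL replicate 1 (0.104), 2 (0.0767) or 4 (0.0645), and the MOCS3 call without LNCaP siCTRL replicate 3 (0.0665).

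Across the 8 groups, ordered by mean, MOCOS was highest in LNCaP and C4-2B siCTRL cells with TG, whose libraries overlapped, and lowest in LNCaP and C4-2B siMOCOS cells without TG, which overlapped as well. XDH was highest in LNCaP siMOCOS and siCTRL cells with TG, which overlapped, then in C4-2B siMOCOS and in C4-2B siCTRL cells with TG, each apart from its neighbours, and lowest in untreated C4-2B siCTRL cells, apart from the rest. The genes most like MOCOS in pattern over the 16 siCTRL libraries, by Pearson correlation of log2(CPM + 0.5), were ESRP1 (r = 0.998), TES (r = 0.994) and CEBPG (r = 0.992). For XDH over all 32 libraries they were ARMCX3 (r = 0.970), ENTPD3 (r = 0.969) and MAN1A1 (r = 0.969), and for SUOX TMPRSS2 (r = 0.966), C1GALT1C1 (r = 0.965) and RALGDS (r = 0.965). These libraries fall into drug groups, so the values describe shared group levels.

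Genes around the pathway were counted in 4 lists, written from general knowledge but with earlier results of these data known. Their counts therefore describe the lists and do not test them against all genes. The first list held genes that supply sulfur, iron-sulfur clusters or molybdate, or that handle sulfur for tRNA modification. Of its 10 measured genes, 2 were higher and 4 lower with TG in LNCaP siCTRL cells, and 0 higher and 4 lower in C4-2B. The list median was -0.22 and -0.34, beside -0.04 and -0.01 over all genes. Of all tested genes 24.6% were higher and 25.1% lower in LNCaP, and 21.2% higher and 19.3% lower in C4-2B, the background for each of these lists. Those called lower in both lines included NFS1, the cysteine desulfurase that also feeds MOCS3, its partner LYRM4 and the molybdate carrier MFSD5. LYRM4 was 11.4 ± 0.513 CPM with TG and 30.0 ± 2.72 CPM without in LNCaP siCTRL cells (SD, n = 4 each; log2 -1.40, adjusted p = 8.5e-07), and changed by -1.28 in C4-2B (adjusted p = 1.9e-06). MFSD5 changed by -1.60 in LNCaP (adjusted p = 3.36e-05) and -1.46 in C4-2B (adjusted p = 0.000136), and NFS1 by -0.85 and -0.60 (adjusted p = 5.95e-06 and 0.00245). After knockdown the list held 1 called gene over both lines and both drug settings, FDXR in LNCaP with TG (log2 0.56, adjusted p = 0.0415), which is named after its values were seen.

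Of the 4 electron partners of the MARC enzymes, CYB5A and CYB5R3 were lower with TG in the siCTRL cells of each line and none was higher, against 25.1% of all genes lower in LNCaP and 19.3% in C4-2B (list median -0.33 in each line, beside -0.04 and -0.01 over all genes). CYB5A changed by -0.65 in LNCaP (adjusted p = 1.85e-05) and -0.64 in C4-2B (adjusted p = 0.000586). Cysteine and sulfide breakdown yields the sulfite that SUOX removes. Among 9 tested genes of that list, 2 were higher and 0 lower in LNCaP, and 2 higher and 1 lower in C4-2B. The medians were -0.18 and -0.25, beside -0.04 and -0.01 over all genes. CDO1, also on the list, reached at most 0.223 CPM in any library and was not tested, and whether sulfite supply changed was not measured. For the higher calls this is near the 24.6% and 21.2% of all genes. GOT1, an aspartate aminotransferase that also deaminates cysteine sulfinate, and CTH, which makes cysteine from cystathionine, were the 2 higher ones in both lines. CTH was 71.3 ± 6.13 CPM with TG and 21.1 ± 1.57 CPM without in LNCaP siCTRL cells (SD, n = 4 each; log2 1.76, adjusted p = 7.02e-09), and changed by 1.91 in C4-2B (adjusted p = 2.48e-07).

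In the purine list 10 of 18 genes passed the filter on low counts within each line. With TG in siCTRL cells 2 were higher and 3 lower in LNCaP, and 1 higher and 3 lower in C4-2B (medians -0.44 and -0.35, beside -0.04 and -0.01 over all genes). These 5 and 4 called genes of 10 are near the 49.7% and 40.5% of all genes called. PNP, which releases hypoxanthine and guanine from their nucleosides, was lower in both (log2 -1.57, adjusted p = 1.32e-05 in LNCaP and -1.22, adjusted p = 0.000319 in C4-2B), and the nucleotidase NT5C2 was higher in both (0.48, adjusted p = 3.77e-05 and 0.96, adjusted p = 1.77e-05). HPRT1, which returns hypoxanthine to the nucleotide pool ahead of XDH, was lower with TG in both lines. It was also the gene of the 4 lists called in the same direction by knockdown in both lines with and without TG. With TG it was 19.9 ± 1.62 CPM in siMOCOS cells and 28.4 ± 2.00 CPM in siCTRL cells of LNCaP (SD, n = 4 each; log2 -0.49, adjusted p = 0.00406), and 18.9 ± 3.36 CPM in siMOCOS cells and 30.1 ± 3.17 CPM in siCTRL cells of C4-2B (log2 -0.64, adjusted p = 0.00632). Without TG the log2 change was -0.42 in LNCaP (adjusted p = 0.0124) and -0.74 in C4-2B (adjusted p = 0.00205). HPRT1 was picked out after the values were seen, and the share of all genes called so was not counted. Of the 10 tested purine genes, knockdown called 2 higher and 1 lower in untreated LNCaP, and 1 each way under TG. In untreated C4-2B it called 0 higher and 2 lower, and 1 each way under TG. Of the electron partners, 1 was higher in treated LNCaP and 1 in untreated C4-2B. Of the cysteine list, 1 was lower in untreated and 1 higher in treated LNCaP, and 0 were called in C4-2B.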

How the data were processed

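Polyadenylated RNA was sequenced from strand-specific libraries of both lines. The deposited values are estimated counts per gene as the authors made them, labelled as length-scaled and not scaled to library size. The submitters' processing notes name STAR 2.6.1d, FastQC 0.11.9, Salmon 1.5.2, cutadapt 3.4 and Trim Galore 0.6.7 and the genome build hg38, without saying what each did; the annotation is not given in the sources used here. Values were rounded and each line was fitted alone (16 libraries, 12 residual degrees of freedom; 13806 genes in LNCaP and 14127 in C4-2B after filterByExpr) with edgeR 4.0.16 in R 4.3.3, TMM factors and the quasi-likelihood test; line differences came from 1 fit of 32 libraries (14628 genes). All 10 members passed each filter. Calls need an adjusted p under 0.05 over all genes. The SE is the absolute unshrunken log2 change over the square root of F. Levels are CPM with TMM factors over all 32 libraries. Libraries of both siRNAs count as replicates. Named genes are the 10 members, list genes called in both lines, and the 3 genes most correlated with MOCOS, XDH and SUOX. FDXR and CDO1 were named besides, after their values were seen. Some list and marker genes are not reported here by name. The members and lists were chosen with earlier results of these data known. Gene positions are from GENCODE v29 and promoters from RefSeq. The test was also run on simulated counts with the same dispersion for all genes. These held no siRNA or GC effects, so that run says nothing about either. Alternatives were DESeq2 1.42.0, limma 3.58.1 voom, DESeq2 size factors, no filter, other sets of libraries in the fit, each library left out, a replicate block and a GC and length correction, and for levels per kilobase the merged exon length (both added after seeing the data). No 2 libraries of a group held identical values, and every such pair differed by more than sampling noise.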

Additional observations from a re-analysis of the deposited data

Results flagged for a closer look

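In 5 of the 80 groups of 4 libraries examined over the 10 genes, 1 library stood far from the other three, and chance alone gives about 1 in 20. SUOX was 24.3 CPM in C4-2B siCTRL with TG replicate 3, while the other libraries had 30.0 to 31.0 CPM. MARC1 was 117 CPM in that same library, against 152 to 153 CPM in the rest of its group. MOCS1 was 26.3 CPM in C4-2B siCTRL with TG replicate 4, against 33.5 to 34.3 CPM. MOCS2 was 40.4 CPM in C4-2B siMOCOS replicate 3, against 37.9 to 38.3 CPM, and MARC1 was 118 CPM in LNCaP siCTRL replicate 4, against 125 CPM in its group. The change of XDH after knockdown without TG differed between the lines by log2 -1.57 (LNCaP minus C4-2B, edgeR adjusted p = 0.00322); XDH stood above every control library in 4 of 4 C4-2B knockdown libraries, while the LNCaP knockdown libraries overlapped their controls.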

How the results depend on the processing

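No direction of a called member changed under any alternative. Of 37 called results for single members, 24 were called under every alternative and 13 were lost under at least 1, while 18 uncalled ones were called under an alternative. For siMOCOS without TG in LNCaP the 2 called members became 1 without a filter on low counts, after the GC and length correction (added after seeing the data) and with all 32 libraries in 1 fit, and were 1 to 3 with a library left out. For siMOCOS with TG in LNCaP the 5 became 3 without a filter, after the GC and length correction, with the groups compared alone and with all 32 libraries in 1 fit, and were 1 to 6 with a library left out. For siMOCOS with TG in C4-2B the 3 became 5 after the GC and length correction. The difference of the lines in the TG response had 0 members and 1 after that correction, and the difference in the siMOCOS response with TG had 0 and 1 with DESeq2. The cause was not tested. Same-numbered siCTRL libraries with and without TG did not regularly deviate together (r from -0.61 to 0.37), and differently numbered ones had r from -0.70 to 0.72. These deviations also correlated with gene GC content, so the check cannot tell whether the numbers pair samples. With the replicate block 4 members were called for TG in LNCaP siCTRL cells, 4 for TG in C4-2B siCTRL cells, 4 between the untreated lines and 0 for the difference in TG response. In that fit MOCS2 with TG in LNCaP (adjusted p = 0.0936) and MOCS3 between the lines (0.0702) lost the call, and MARC1 with TG in C4-2B (0.0331) and MOCOS between the lines (0.0236) gained it. Depth limits AOX1, whose control libraries held few counts.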
